A study of Homo sapiens with 42 samples.

Results

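Autophagy delivers cytoplasm to lysosomes inside a double membrane, the autophagosome. A kinase complex starts it, a lipid kinase complex marks the membrane with PI3P, ATG8 proteins such as LC3 are attached to the membrane by conjugation enzymes, and receptors tie cargo to ATG8. Senescent cells are arrested for good and secrete many proteins, and autophagy is a known part of their metabolism. The members described here are 41 genes of this machinery, chosen by name for their roles in initiation, conjugation, membrane supply and cargo binding. All 41 were found among the 28266 symbols of the count table, and all 41 passed the filter on low counts in both cell lines.

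The RNA came from 42 poly(A) libraries of human lung fibroblasts in 12 groups. IMR90 ER:RAS cells (18 libraries, 3 per group) carry a retroviral fusion of oncogenic RAS with an oestrogen receptor, and 100 nM 4-hydroxytamoxifen (4OHT) activated the fusion and brought the cells into oncogene-induced senescence (OIS), with DMSO as the control. Parental IMR90 cells (24 libraries, 4 per group) received bleomycin, which breaks DNA, at 50 µg/ml for 24 h, or DMSO. All cells, controls included, were cultured for 7 days and then given 1 µg/ml doxycycline for 72 h, which induced a control shRNA, COPB2 shRNA 1 or COPB2 shRNA 2 from an integrated vector, and were collected on day 10. COPB2 encodes a subunit of the COPI vesicle coat. The labels only number the replicates, while the study describes those of its knockdown comparisons in senescent cells as independent experiments. The p-values measure the spread between these libraries.

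Total counts ran from 13148194 to 23597310 per library. Levels are given in CPM, which are counts scaled to the size of each library times its TMM normalization factor. COPB2 stood at 267 to 620.4 CPM in the 14 control shRNA libraries, while the 28 knockdown libraries had 33.9 to 122 CPM, with no overlap. All 8 fibroblast markers exceeded 1 CPM in every library, and the summed epithelial, endothelial and leukocyte markers reached at most 2.09, 13.7 and 3.00 CPM. These are bulk samples, in which fewer cells of a type and less RNA per cell cannot be told apart.

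The members were transcribed at very different levels. Per kb of exon, with the median taken over the 42 libraries, the ATG8 gene GABARAP was highest at 220.2 CPM per kb, followed by the receptor gene SQSTM1 (p62) at 181 and by GABARAPL1, another ATG8 gene, at 83.2. The mitophagy receptor BNIP3L followed at 51.7 and MAP1LC3B, which encodes LC3B, at 43.8. At the other end stood ATG2B, a lipid transfer protein, at 2.24, the kinase ULK2 at 1.82 and the conjugation enzyme ATG10 at 1.25. GABARAP and SQSTM1 overlapped in their ranges over the libraries (134 to 465 and 92.2 to 316 CPM per kb), so their order is not fixed by these data. On GRCh38 the genes followed most closely below lie at chr10:131967684-131981923 (BNIP3), chr17:68421281-68457496 (WIPI1), chr16:87392336-87404774 (MAP1LC3B), chr12:10212877-10223128 (GABARAPL1) and chr5:179806393-179838078 (SQSTM1). Exons of 16 of the 41 members overlap genes on the opposite strand, and whether the counting used strand is not stated, so their counts may hold reads of these neighbours. Among the genes with values below these are WIPI1 (ARSG), MAP1LC3B (FBXO31), ATG7 (VGLL4), SQSTM1 (MRNIP and MGAT4B), BECN1 (CNTD1 and PSME3), ATG14 (FBXO34), ATG4D (KRI1), VMP1 (PTRH2) and BNIP3L (PNMA2).

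**Figure D1:**
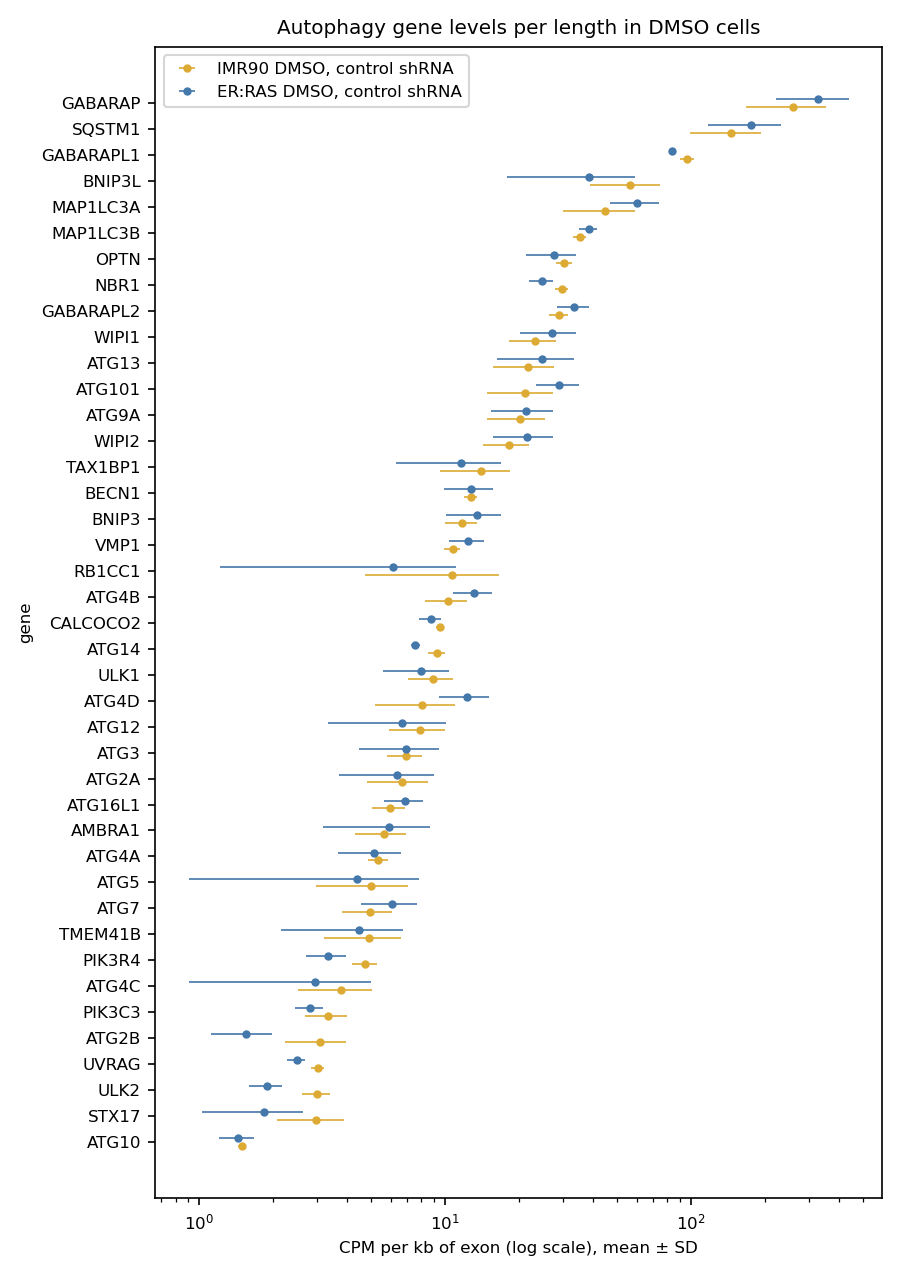
Levels per exon length (CPM per kb, log scale) of the 41 genes in DMSO-treated cells with the control shRNA, as mean ± SD over 4 IMR90 libraries (yellow) and 3 ER:RAS libraries (blue). GABARAP and SQSTM1 sit at the top in both lines and ATG10 at the bottom.

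The promoters of 7 members are shown because these genes were called the same way with every shRNA in OIS, 6 higher and GABARAPL1 lower. Each covers 250 bases before to 50 after a start of the gene (RefSeq, GRCh38.p14), 5′ to 3′ on the gene's strand. For ATG101 this start lies inside the gene, whose RefSeq span begins at chr12:52065300. The other windows are placed at the 5′ end of the gene's span. Capitals mark matches on either strand to the E-box CACGTG, to the shorter run ACGTG or to TGACNNNGC. BNIP3 lies at chr10:131981874-131982173 (minus strand), MAP1LC3B at chr16:87392086-87392385 (plus strand), VMP1 at chr17:59707404-59707703 (plus strand), ATG101 at chr12:52069728-52070027 (plus strand), WIPI1 at chr17:68457447-68457746 (minus strand), GABARAPL2 at chr16:75566129-75566428 (plus strand) and GABARAPL1 at chr12:10212627-10212926 (plus strand). The windows of WIPI1 and GABARAPL1 hold none of these letters.
BNIP3: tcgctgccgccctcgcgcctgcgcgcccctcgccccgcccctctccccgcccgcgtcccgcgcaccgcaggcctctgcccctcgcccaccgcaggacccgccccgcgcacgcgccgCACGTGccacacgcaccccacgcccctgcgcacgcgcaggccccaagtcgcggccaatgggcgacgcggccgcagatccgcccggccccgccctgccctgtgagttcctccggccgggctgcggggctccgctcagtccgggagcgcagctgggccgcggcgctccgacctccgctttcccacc
MAP1LC3B: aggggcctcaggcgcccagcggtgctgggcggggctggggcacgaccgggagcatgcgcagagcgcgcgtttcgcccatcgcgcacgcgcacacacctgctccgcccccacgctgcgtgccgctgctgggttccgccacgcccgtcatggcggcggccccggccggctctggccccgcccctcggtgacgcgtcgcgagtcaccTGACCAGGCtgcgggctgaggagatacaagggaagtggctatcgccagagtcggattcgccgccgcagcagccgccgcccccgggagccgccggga
VMP1: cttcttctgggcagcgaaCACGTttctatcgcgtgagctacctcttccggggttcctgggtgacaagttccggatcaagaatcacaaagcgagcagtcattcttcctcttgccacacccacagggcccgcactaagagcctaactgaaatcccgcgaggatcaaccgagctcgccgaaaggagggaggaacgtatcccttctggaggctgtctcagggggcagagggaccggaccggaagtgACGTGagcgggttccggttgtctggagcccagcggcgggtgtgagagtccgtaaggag
ATG101: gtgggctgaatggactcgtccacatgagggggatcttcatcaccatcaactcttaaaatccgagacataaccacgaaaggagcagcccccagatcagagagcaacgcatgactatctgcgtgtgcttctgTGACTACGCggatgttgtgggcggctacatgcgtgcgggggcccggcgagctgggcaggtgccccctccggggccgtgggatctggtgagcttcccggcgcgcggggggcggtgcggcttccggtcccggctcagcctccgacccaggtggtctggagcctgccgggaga
WIPI1: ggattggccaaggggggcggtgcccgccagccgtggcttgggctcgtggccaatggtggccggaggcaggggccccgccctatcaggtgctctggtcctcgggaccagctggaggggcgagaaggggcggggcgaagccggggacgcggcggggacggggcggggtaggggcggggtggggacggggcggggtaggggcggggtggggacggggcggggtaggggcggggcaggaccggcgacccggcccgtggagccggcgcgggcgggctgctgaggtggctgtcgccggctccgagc
GABARAPL2: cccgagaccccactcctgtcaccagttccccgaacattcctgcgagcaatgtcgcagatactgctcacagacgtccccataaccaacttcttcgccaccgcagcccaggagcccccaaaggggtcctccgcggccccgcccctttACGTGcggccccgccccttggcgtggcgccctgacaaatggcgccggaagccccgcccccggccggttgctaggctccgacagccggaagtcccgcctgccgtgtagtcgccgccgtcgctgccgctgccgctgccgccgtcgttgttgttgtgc
GABARAPL1: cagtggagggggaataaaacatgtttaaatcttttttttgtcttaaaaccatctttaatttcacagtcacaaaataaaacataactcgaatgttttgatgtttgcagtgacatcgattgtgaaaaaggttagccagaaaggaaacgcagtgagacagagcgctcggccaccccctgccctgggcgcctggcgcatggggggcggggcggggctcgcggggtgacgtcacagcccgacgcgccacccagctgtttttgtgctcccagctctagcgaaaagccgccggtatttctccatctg
Promoters were held for 35 of the 41 members. The E-box CACGTG was in 3 of the 35 (8.6%; ATG14, ATG3 and BNIP3) and in 8.4% of all 18292 promoters. ACGTG, a form of the core letters of the HIF element that also lies inside the E-box, was in 11 (31.4%), against 23.3% of all. Other forms of that core were not searched. TGACNNNGC, part of the antioxidant element, was in 3 (8.6%; ATG101, CALCOCO2 and MAP1LC3B), against 14.3% of all. These are matches of letters and a description only.

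The first question was how the members differed between OIS and DMSO-treated ER:RAS cells. Calls rest on edgeR's quasi-likelihood test with the Benjamini-Hochberg adjustment across every gene in the fit, at an adjusted p under 0.05. With the control shRNA, 9 members rose and 1 fell, which is 10 of 41 (24.4%), while 35.7% of the 14297 genes tested were called. Per direction the background was 15.5% called higher and 20.2% called lower. The median log2 fold change of the members was 0.15, against -0.08 over all genes, and 25 of the 41 were positive. With COPB2 shRNA 1, 11 were called (9 higher, 2 lower; background 36.9%, with 15.4% higher and 21.5% lower), and with COPB2 shRNA 2, 10 were called (8 higher, 2 lower; background 36.9%, with 14.9% higher and 22% lower). With the replicate number as a block these counts were 17 and 20, beside 53.2% and 53.1% of all genes, and in both of these comparisons the equally numbered libraries deviated together. The 3 contrasts use separate libraries. ATG101, WIPI1, MAP1LC3B, GABARAPL2, VMP1 and BNIP3 were called higher in all 3, and GABARAPL1 was called lower in all 3. That is 7 of 41 members, beside a background of 29.5% of genes called the same way in all 3 (12.4% higher, 17% lower). In the control shRNA contrast the count was 3 when only the 6 libraries of the contrast were fitted (21.6% of all genes). These were WIPI1, GABARAPL1 and BNIP3. After a correction for GC content and length the count was 19 (53.5% of all genes). DESeq2 size factors moved the median of all genes in this contrast from -0.08 to 0.04.

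BNIP3, a mitochondrial outer membrane receptor for mitophagy, had the largest difference. It stood at 52.3, 42 and 69.2 CPM in the DMSO libraries and at 297, 243 and 210.3 CPM in the OIS libraries with the control shRNA. The groups did not overlap, and the log2 fold change was 2.08 ± 0.23 (SE; adjusted p = 5.46e-06). With the COPB2 shRNAs it was 2.25 ± 0.23 and 2.21 ± 0.23, again without overlap. BNIP3 is a known target of HIF, the factor of the low-oxygen response. Of 9 tested genes in a HIF target list of 10, 4 were called higher in OIS and 1 lower, beside 15.5% and 20.2% of all genes. The list's summed level was 648 to 716 CPM in DMSO and 706 to 938 CPM in OIS with the control shRNA. Its part in the BNIP3 result was not tested. BNIP3L, the related receptor, had 68.3 to 237 CPM in DMSO and 161 to 318 CPM in OIS, which overlapped (log2 fold change 0.50 ± 0.60, adjusted p = 0.574).

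WIPI1, which binds PI3P on the forming membrane, stood at 89.98, 117 and 69.8 CPM in DMSO and at 247, 284 and 238 CPM in OIS. All OIS libraries were above all DMSO libraries, with a log2 fold change of 1.38 ± 0.17 (adjusted p = 1.04e-05), and of 1.60 and 1.316 with the COPB2 shRNAs. Its paralogue WIPI2 stood at 178, 251 and 148 CPM in DMSO and 457, 298 and 236 CPM in OIS and rose by 0.68 ± 0.24 (adjusted p = 0.0409).

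The ATG8 genes went in different directions. MAP1LC3B rose from 193, 177 and 209 CPM in DMSO to 359, 339 and 300.1 CPM in OIS (log2 fold change 0.68 ± 0.15, adjusted p = 0.00248). With COPB2 shRNA 1 its OIS libraries were at 474, 417 and 391 CPM, and with COPB2 shRNA 2 at 511, 466 and 456 CPM, with log2 fold changes of 1.07 and 1.17 against their own DMSO groups. GABARAPL2 rose from 94.5, 89.6 and 118 to 218, 157 and 151 CPM (0.69 ± 0.18, adjusted p = 0.00632). Its calls with COPB2 shRNA 1 and COPB2 shRNA 2 were lost after a correction for GC content and length (adjusted p = 0.0508 and 0.0645). GABARAPL1 fell from 335, 348 and 334 to 124, 123 and 130.3 CPM, with a log2 fold change of -1.53 ± 0.15 (adjusted p = 1.26e-06) and of -1.56 and -1.74 with the COPB2 shRNAs. MAP1LC3A (-0.28 ± 0.42) and GABARAP (-0.44 ± 0.39) were not called. The near copies MAP1LC3B2 and GABARAPL3 had at most 33 and 4 counts in any library.

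**Figure D2:**
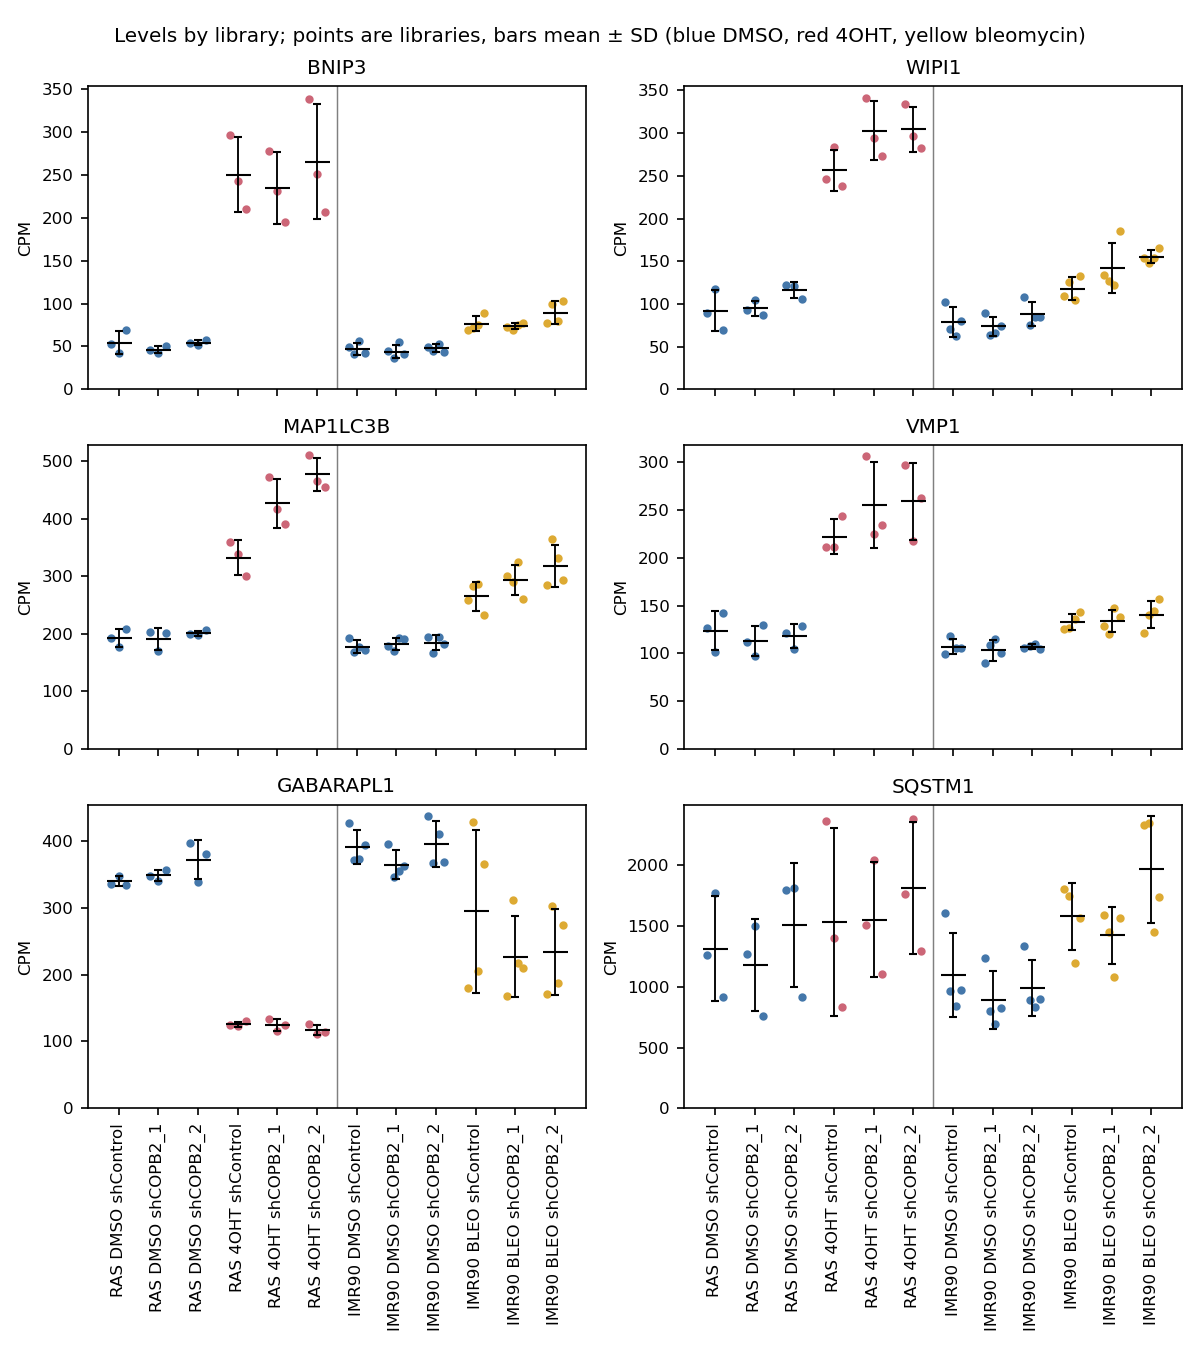
CPM of BNIP3, WIPI1, MAP1LC3B, VMP1, GABARAPL1 and SQSTM1 in every library of the 12 groups, with mean ± SD as bars (3 libraries per ER:RAS group, 4 per IMR90 group; linear axes from 0). GABARAPL1 separates OIS (red) from DMSO (blue) in ER:RAS cells, while SQSTM1 spreads widely within groups.

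VMP1, an ER membrane scramblase that takes part in autophagosome formation, stood at 127, 102 and 142 CPM in DMSO and 211, 211 and 243 CPM in OIS (0.74 ± 0.22, adjusted p = 0.0138). It was called with both COPB2 shRNAs too (1.09 and 1.05). After a correction for GC content and length the control shRNA value was 1.02 with an adjusted p of 0.0693. The call with COPB2 shRNA 2 was lost as well after this correction (adjusted p = 0.131). Its exons hold the locus of MIR21 on the same strand, which had 0 counts. TMEM41B, the other scramblase, had wider groups: 19.8, 8.81 and 28.5 CPM in DMSO and 31.7, 46.8 and 77.7 CPM in OIS, without overlap, for 1.35 ± 0.63 (adjusted p = 0.113). It was called with COPB2 shRNA 1 (1.90) and COPB2 shRNA 2 (1.98). With 1 library left out the values ran from 1.54 to 2.68 and from 1.60 to 2.79, and each call was lost without the third OIS library or without the first or second DMSO library of that shRNA (adjusted p = 0.0802 to 0.0853 and 0.0735 to 0.0938).

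ATG101, a subunit of the initiation kinase complex, stood at 80.0, 114 and 84.8 CPM in DMSO and 363, 167 and 113 CPM in OIS (1.09 ± 0.34, adjusted p = 0.0196), so that the lowest OIS library lay just below the highest DMSO library. ATG7, the E1-like enzyme of both conjugation systems, was at 50.8, 68.7 and 41.7 CPM in DMSO and 185, 112 and 75.9 CPM in OIS (1.10 ± 0.30, adjusted p = 0.0100). ATG4D, a protease that processes ATG8, was at 25.6, 35.2 and 22.9 CPM in DMSO and 106, 67.8 and 38.6 CPM in OIS (1.24 ± 0.35, adjusted p = 0.0122). In these genes and in WIPI2 the first OIS library with the control shRNA was the highest. The same library was the highest of its group for BNIP3, MAP1LC3B, GABARAPL2 and SQSTM1, but not for WIPI1, VMP1, TMEM41B or GABARAPL1. Its TMM factor (0.611) was the lowest of the 42 libraries. Without this library the values were 0.56 for ATG101 (adjusted p = 0.163), 0.77 for ATG7 (0.0661), 0.90 for ATG4D (0.0719) and 0.44 for WIPI2 (0.197), so all 4 calls were lost. The ATG101 call was lost as well without the first or the third DMSO library (adjusted p = 0.0774 and 0.0576), and that of WIPI2 in 4 of the 6 fits that leave out 1 library. With COPB2 shRNA 1 the ATG101 call was lost in 2 of 6 such fits (adjusted p = 0.0582 and 0.0595), and with COPB2 shRNA 2 in 5 of 6 (adjusted p = 0.0592 to 0.136).

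SQSTM1, the receptor whose protein is degraded by autophagy, stood at 1257, 1771 and 914 CPM in DMSO and at 2359, 1402 and 836 CPM in OIS. The OIS range contained the whole DMSO range, and the log2 fold change was 0.12 ± 0.36 (95% interval -0.66 to 0.89, adjusted p = 0.847). Without the first OIS library it was -0.26. With the COPB2 shRNAs the values were 0.32 and 0.19, neither called, while the correction for GC content and length gave 0.46 and 0.42, both called (adjusted p = 0.00890 and 0.0140). None of the 5 cargo receptors was called with the control shRNA, and CALCOCO2, a receptor for bacteria and damaged mitochondria, was called with COPB2 shRNA 2 (0.49), a call lost in 3 of 6 fits that leave out 1 library (adjusted p = 0.0616 to 0.137).

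**Figure D3:**
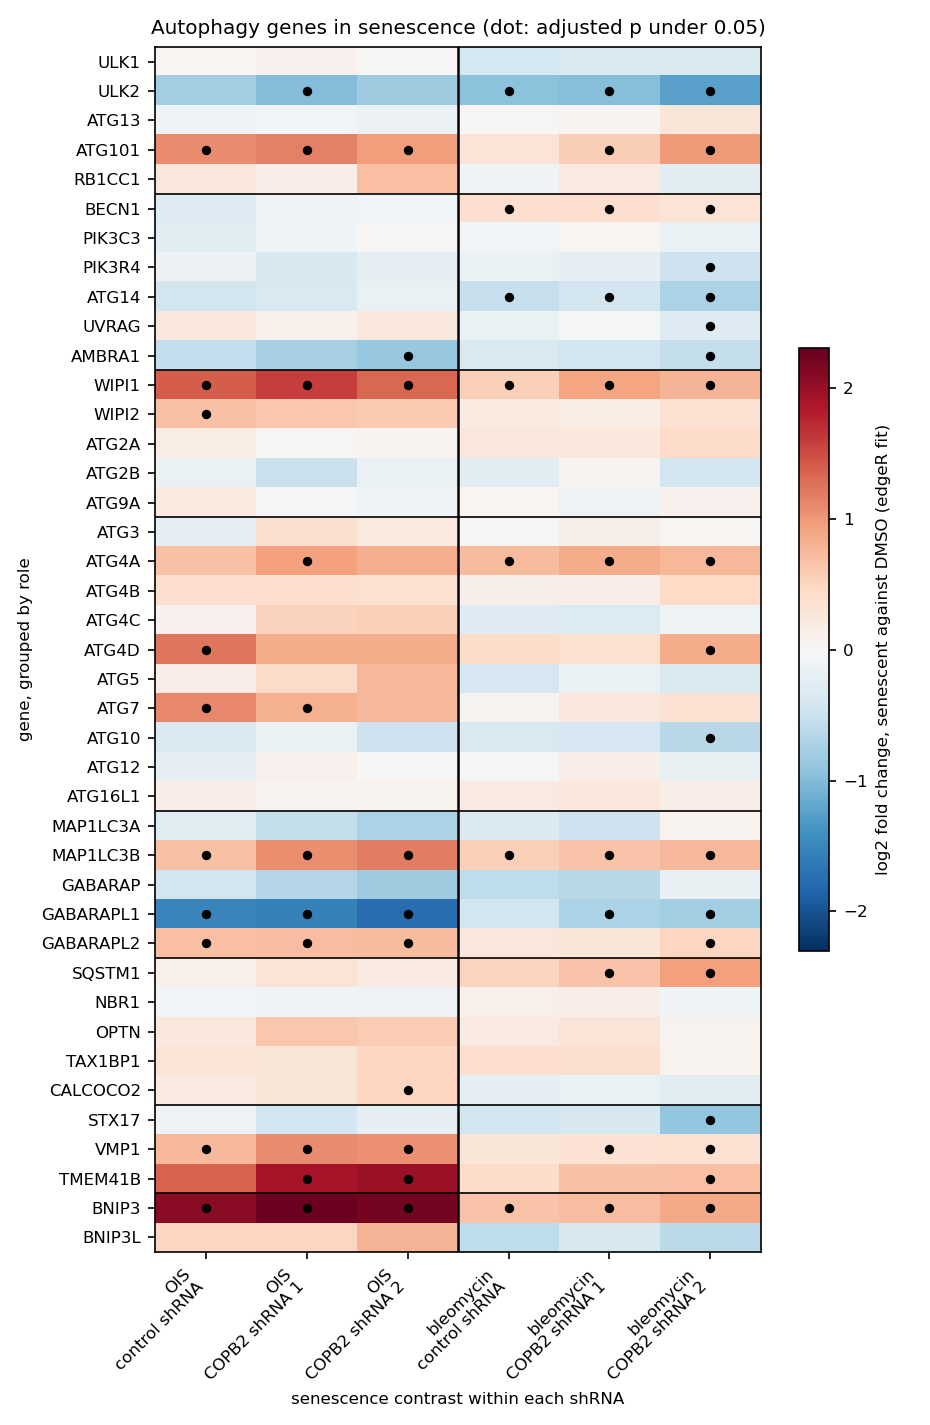
Log2 fold change (colour) of the 41 genes, grouped by role, in senescent against DMSO-treated cells within each shRNA, from the edgeR fits. Black dots mark adjusted p-values under 0.05, of which GABARAPL1 has 3 in OIS and BNIP3 has 6 in all.

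The same question was asked of bleomycin in IMR90 cells. With the control shRNA, 5 members rose and 2 fell, 7 of 41 (17.1%), beside 31.2% of the 14783 genes tested (15.4% higher, 15.8% lower). The median log2 fold change of the members was 0.03, against -0.01 over all genes. With COPB2 shRNA 1, 11 were called (8 higher, 3 lower; background 35.2%, with 17.4% higher and 17.8% lower), and with COPB2 shRNA 2, 19 (11 higher, 8 lower; 46.3%, background 40%, with 21.7% higher and 18.3% lower). BECN1, WIPI1, ATG4A, MAP1LC3B and BNIP3 were called higher with all 3 shRNAs and ULK2 and ATG14 lower, beside a background of 25.1% of genes (12.7% higher, 12.4% lower). After the correction for GC content and length the control shRNA count was 21 (44.4% of all genes), and for COPB2 shRNA 2 it was 10 when only the 8 libraries of the contrast were fitted (27.1% of all genes).

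BNIP3 stood at 48.9, 41.1, 56.6 and 42.6 CPM in DMSO and 69.6, 71.5, 75 and 88.8 CPM after bleomycin, without overlap (0.66 ± 0.14, adjusted p = 0.000777). The summed HIF target list had 593 to 721 CPM in DMSO and 567 to 740.3 CPM after bleomycin. WIPI1 went from 102, 71.1, 62.1 and 80.2 CPM to 109.8, 126, 105 and 133 CPM, with the lowest bleomycin library just above the highest DMSO library (0.55 ± 0.17, adjusted p = 0.0144). MAP1LC3B went from 193, 168, 177 and 172 CPM to 259, 284, 287 and 232 CPM, without overlap (0.55 ± 0.10, adjusted p = 0.000333). WIPI1, MAP1LC3B and BNIP3 are the 3 members called the same way in all 6 senescence contrasts, 3 of 41 beside a background of 13% of the 14010 genes tested in both lines. When only the libraries of the OIS contrast with the control shRNA were fitted, MAP1LC3B was not called there (adjusted p = 0.0988).

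ATG4A, another protease of ATG8, rose from 14.5, 14.7, 15.7 and 17.6 CPM to 22.7, 22.3, 36 and 25.8 CPM (0.74 ± 0.15, adjusted p = 0.000817). BECN1, the scaffold of the lipid kinase complex, rose from 78.6, 75.3, 84.5 and 86.4 CPM to 103, 108, 122 and 101 CPM (0.39 ± 0.10, adjusted p = 0.00459). ULK2, a kinase of the initiation complex, fell from 24.4, 33.5, 29.5 and 31.5 CPM to 12.8, 14.6, 17.9 and 18.4 CPM (-0.94 ± 0.20, adjusted p = 0.000854). ATG14, which directs the lipid kinase complex to autophagy, fell from 42.4, 51.3, 45.6 and 46.5 CPM to 31.4, 30.3, 39.7 and 30.9 CPM (-0.53 ± 0.14, adjusted p = 0.00732). The groups did not overlap in any of these 4 genes. With COPB2 shRNA 1 the ATG14 call was lost in 2 of 8 fits that leave out 1 library (adjusted p = 0.0574 and 0.0698), and with COPB2 shRNA 2 that of BECN1 was lost without the second DMSO library (adjusted p = 0.0529).

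SQSTM1 stood at 1610.2, 961, 842 and 972 CPM in DMSO and 1804, 1749, 1195 and 1568 CPM after bleomycin (0.50 ± 0.24, adjusted p = 0.117). The DMSO library at 1610.2 lay above 2 of the 4 bleomycin libraries. With the control shRNA SQSTM1 was called higher with the replicate block and after the correction for GC content and length (adjusted p down to 0.000724). With 1 library left out its log2 fold change ran from 0.43 to 0.76. With COPB2 shRNA 1 and COPB2 shRNA 2 SQSTM1 was called higher (0.65 and 0.95, adjusted p = 0.0384 and 0.00320). The call with COPB2 shRNA 1 was lost in 6 of 8 fits that leave out 1 library (adjusted p = 0.0728 to 0.116) and in the unfiltered table (adjusted p = 0.0564). GABARAPL1 had 426, 371, 372 and 394 CPM in DMSO and 179, 428, 205 and 366 CPM after bleomycin (-0.44 ± 0.23, adjusted p = 0.166), with 2 libraries low and 2 at or near the DMSO level. Without the second bleomycin library it was called lower (-0.68, adjusted p = 0.0350). It was called lower with both COPB2 shRNAs (-0.72 and -0.80), of which the first was lost in 3 of 8 fits that leave out 1 library (adjusted p = 0.0522 to 0.0885).

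Responses of both models were compared in 1 fit of all 42 libraries (15299 genes), as the difference of the OIS and bleomycin log2 fold changes with the control shRNA. The difference was called for 6 of 41 members (14.6%; background 20.3%, with 8.14% higher and 12.1% lower). BNIP3 (1.51 ± 0.25, adjusted p = 2.97e-05), ATG7 (1.09 ± 0.35, adjusted p = 0.0244), WIPI1 (0.89 ± 0.24, adjusted p = 0.00755), VMP1 (0.54 ± 0.19, adjusted p = 0.0468) and CALCOCO2 (0.47 ± 0.16, adjusted p = 0.0320) had the higher response in OIS. GABARAPL1 had the lower one (-1.02 ± 0.30, adjusted p = 0.0127). MAP1LC3B, called in both models, differed by 0.21 (95% interval -0.13 to 0.54). No member was called in opposite directions in the senescence contrasts. Cell line and inducer differ together here and cannot be told apart. When only the 14 libraries of both contrasts were fitted, 1 of the 6 calls, BNIP3, was left (14.3% of all genes). With 1 library left out, the VMP1 call was lost in 10 of 14 fits (adjusted p = 0.0565 to 0.146), that of CALCOCO2 in 8 (0.0508 to 0.0797) and that of ATG7 in 4 (0.0576 to 0.166). VMP1 and CALCOCO2 lost their calls in the unfiltered table too (adjusted p = 0.0965 and 0.0869), and VMP1 also lost its call after the correction for GC content and length (adjusted p = 0.294).

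**Figure D4:**
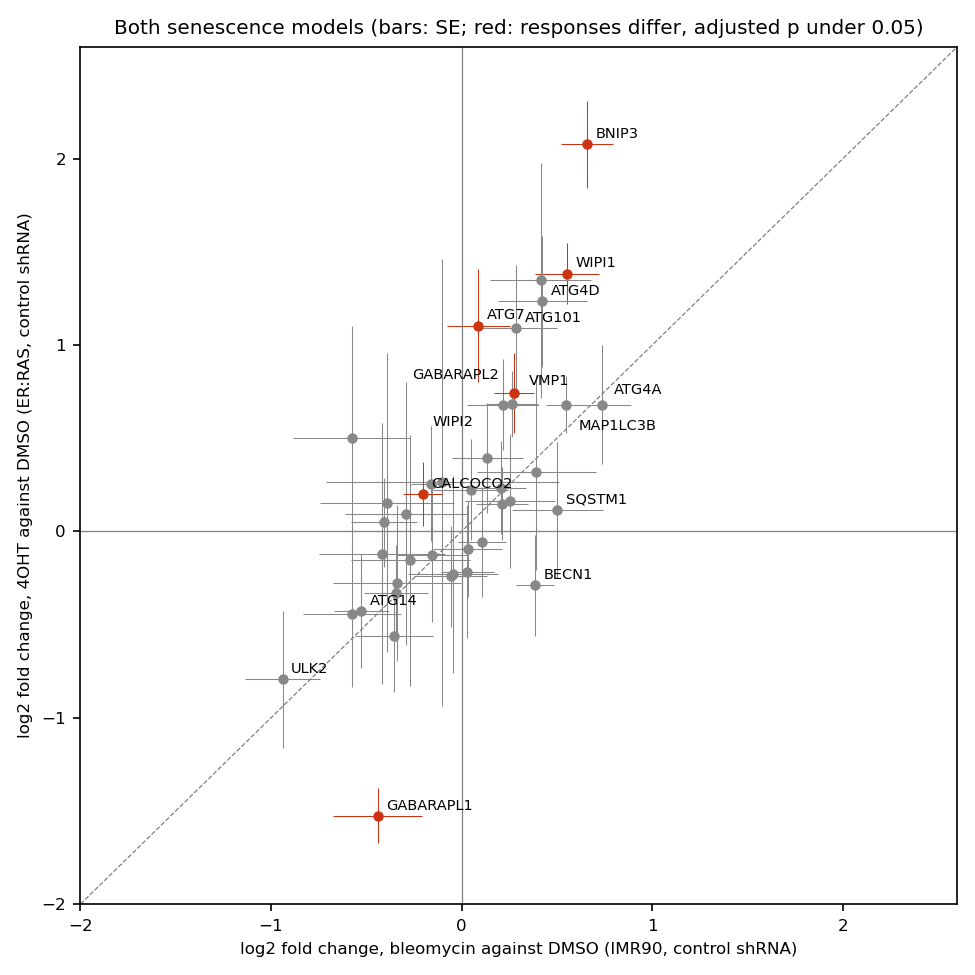
Log2 fold change in OIS (vertical) against that after bleomycin (horizontal) for the 41 genes with the control shRNA; bars are SE and the dashed line marks equal values. The 6 red genes, BNIP3 and GABARAPL1 at the extremes, had responses that differed at an adjusted p-value under 0.05.

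The effect of COPB2 knockdown was asked next, for both shRNAs and in all 4 cell states. COPB2 itself had log2 fold changes of -2.93 and -2.75 in DMSO-treated ER:RAS cells and -2.28 and -2.11 in OIS. In IMR90 cells it had -2.84 and -2.54 with DMSO and -2.23 and -2.24 after bleomycin. With the COPB2 shRNAs it was called higher in senescent than in DMSO-treated cells (1.05 and 1.04 in OIS, 0.90 and 0.58 after bleomycin). The difference of its knockdown effect between these states was not called. None of the 41 members was called in any of the 8 contrasts by edgeR. Over all genes the called share was 0.00699% with either shRNA in DMSO-treated ER:RAS cells, 0.140% and 0.224% in OIS, 0.00676% with either shRNA in DMSO-treated IMR90 cells and with COPB2 shRNA 1 after bleomycin, and 0.0744% with COPB2 shRNA 2 after bleomycin. At an unadjusted p under 0.05 there were 5 of 328 member tests (1.52%), beside 2.48% of all tests in the 8 contrasts. The DESeq2 Wald test called 1 member in 1 of these contrasts, MAP1LC3B with COPB2 shRNA 2 in OIS (adjusted p = 0.00927), beside 0.49% of all genes. The correction for GC content and length with edgeR called 1 with COPB2 shRNA 2 after bleomycin, beside 0.365% of all genes. A missed threshold does not show that levels were alike: the 95% interval lay within ±1 on the log2 scale for 26 to 32 of the 41 members in the ER:RAS contrasts and for 38 to 40 in the IMR90 contrasts.

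MAP1LC3B had the smallest p in OIS with both shRNAs. Against 359, 339 and 300.1 CPM with the control shRNA, it had 391 to 474 CPM with COPB2 shRNA 1 (log2 fold change 0.35, 95% interval 0.03 to 0.67, unadjusted p = 0.0353 by edgeR) and 456 to 511 CPM with COPB2 shRNA 2 (0.51, 0.19 to 0.83, unadjusted p = 0.00433, adjusted p = 0.480). Neither group overlapped with the control shRNA, whose libraries both comparisons share. In OIS, 3 members with COPB2 shRNA 1 and 4 with COPB2 shRNA 2 had no overlap with the control shRNA, beside 6.36% and 7.83% of all genes tested. The next smallest p-values were those of CALCOCO2 (0.27 and 0.28) and WIPI1 (0.23 and 0.23). After bleomycin with COPB2 shRNA 2 the 3 smallest were ATG101 (0.65, 95% interval 0.21 to 1.09), MAP1LC3B (0.27, 0.05 to 0.48) and WIPI1 (0.40, 0.06 to 0.75), none called. SQSTM1 had intervals of -0.76 to 0.79 and -0.54 to 1.01 in OIS and of -0.64 to 0.35 and -0.17 to 0.81 after bleomycin. GABARAPL1 had -0.33 to 0.29 and -0.43 to 0.19 in OIS, and BNIP3 had -0.58 to 0.38 and -0.41 to 0.55.

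**Figure D5:**
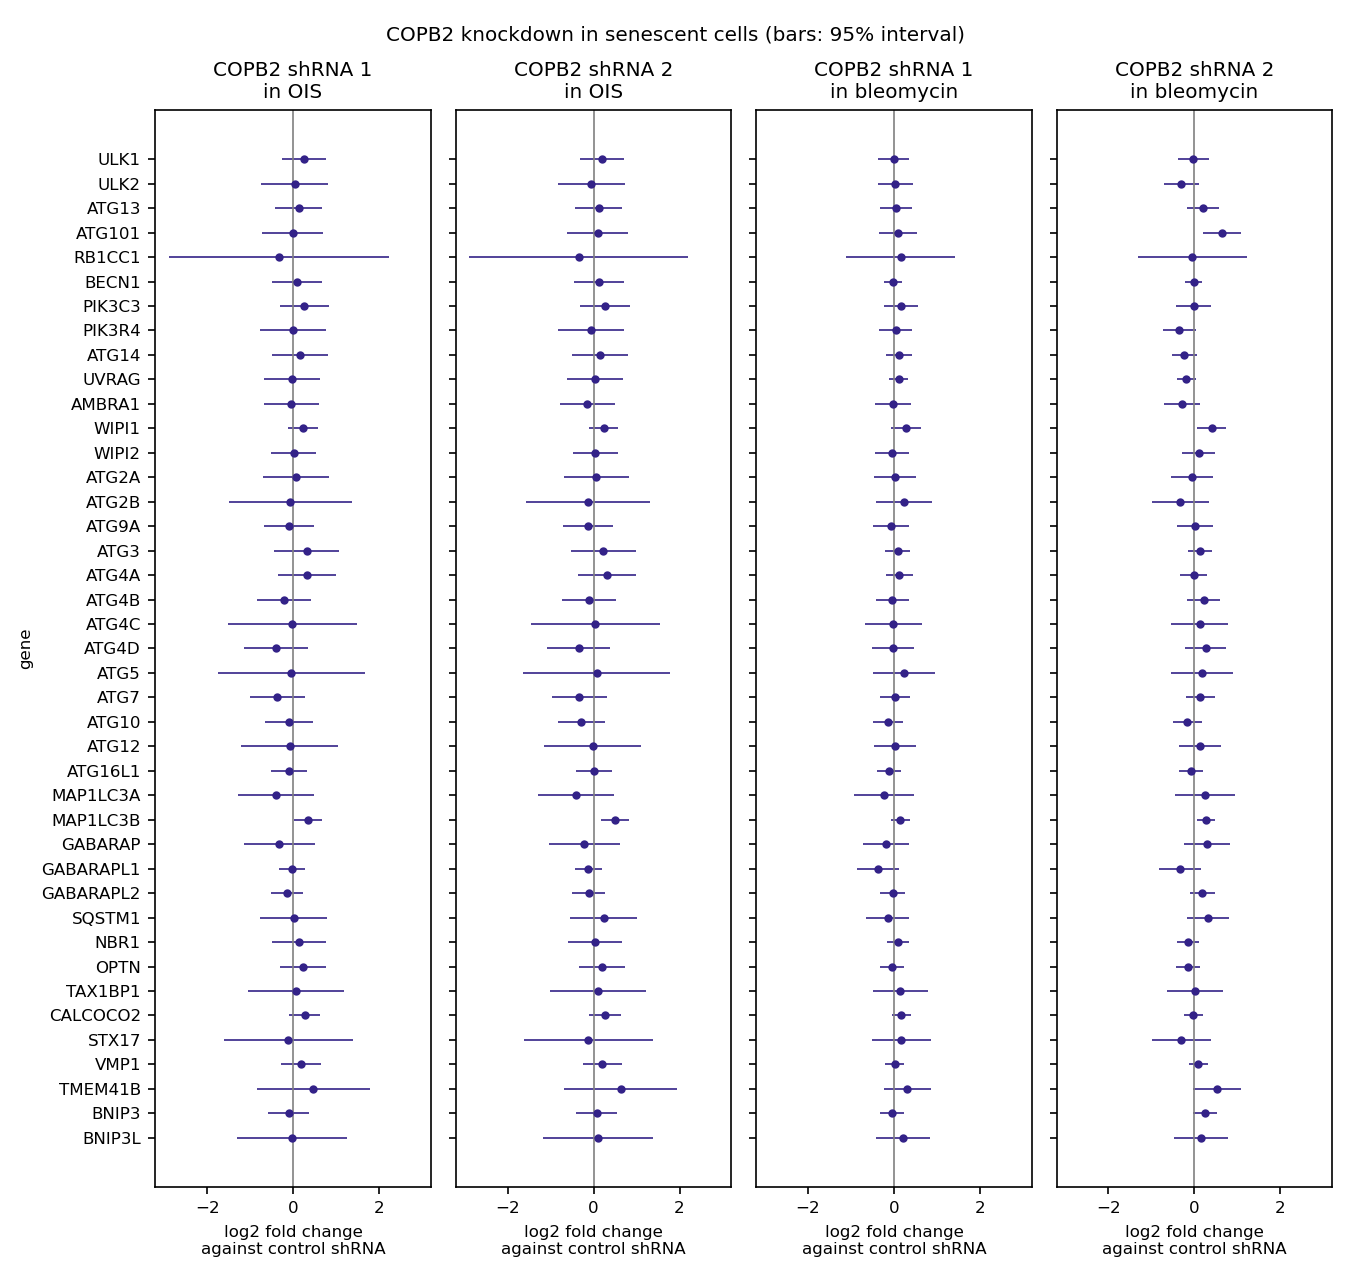
Log2 fold change of the 41 genes on COPB2 knockdown in senescent cells, for both shRNAs; bars are 95% intervals of the edgeR fit. The MAP1LC3B intervals in OIS lie above 0 (0.03 to 0.67 and 0.19 to 0.83), and RB1CC1 has the widest.

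Whether knockdown acted differently in senescent cells than under DMSO was tested directly. This difference was called for none of the 41 members in any of 4 edgeR contrasts. At an unadjusted p under 0.05 there were 0 to 1 members per contrast. Over all genes that share was 1.36% and 1.84% in the OIS contrasts and 0.819% and 1.93% in the bleomycin contrasts. No gene of the whole table was called in these 4 contrasts by that fit, while in the OIS contrasts the replicate block called 4 genes with either shRNA and the DESeq2 Wald test 8 and 13, none of them members. At that unadjusted threshold MAP1LC3B had 0.49 (95% interval 0.03 to 0.95) with COPB2 shRNA 2 in OIS, and ATG101 had 0.69 (0.07 to 1.31) with COPB2 shRNA 2 after bleomycin, neither called.

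A list of 72 other autophagy genes covers signalling to the machinery, fusion with lysosomes, further receptors and transcription factors. Of 70 tested, 5 were called higher and 9 lower in OIS with the control shRNA, beside 15.5% and 20.2% of all genes. After bleomycin with the control shRNA 5 were called higher and 8 lower, beside 15.4% and 15.8% of all genes. In OIS the highest were TRIB3 (2.66 ± 0.28), an inhibitor of AKT, CEBPB (1.19 ± 0.26), a transcription factor, and DDIT4 (0.96 ± 0.26), an inhibitor of TORC1. The lowest were VPS41 (-1.38 ± 0.46), a subunit of the HOPS tether, and PRKAG2 (-1.28 ± 0.28), a subunit of AMPK. After bleomycin VAMP8, a SNARE of the lysosome, rose (1.12 ± 0.38), and the transcription factor FOXO3 (-1.24 ± 0.18) and the TORC1 inhibitor DEPTOR (-1.25 ± 0.30) fell. The calls of VPS41 and VAMP8 were lost in 4 of 6 and 5 of 8 fits that leave out 1 library (adjusted p up to 0.116 and 0.122). DDIT4 was called in opposite directions, at 0.96 in OIS and -0.83 after bleomycin, and the difference was itself called (1.88 ± 0.35, adjusted p = 0.000138). SESN1, a stress-induced inhibitor of TORC1, was called lower in OIS (-1.13) and higher after bleomycin (0.49), with a difference of -1.56 ± 0.25 (adjusted p = 2.00e-05). The transcription factor ATF4 was called lower in both models with the control shRNA. With 1 library left out it ran from -0.71 to -0.53 after bleomycin and stayed called. Its call in OIS was lost in 5 of 6 such fits (adjusted p up to 0.168). TFEB and TFE3, which drive lysosomal and autophagy genes, were not called in either model (-0.26 and 0.31 in OIS, -0.41 and 0.33 after bleomycin).

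Of the 70, DDIT3 and ATF4, factors of the stress response that also act on autophagy genes, were called on knockdown. DDIT3 stood at 29.6, 25.6 and 27.1 CPM with the control shRNA in OIS, at 106, 118 and 234 CPM with COPB2 shRNA 1 and at 124, 137 and 233 CPM with COPB2 shRNA 2, without overlap. The log2 fold changes were 2.49 ± 0.37 and 2.59 ± 0.37 (adjusted p = 0.00822 and 0.00471), and the first call was lost without the second or the third control library (adjusted p up to 0.0770). Both calls were lost when only the libraries of each contrast were fitted (adjusted p = 0.494 and 0.213). Those restricted fits called 0 of all genes. ATF4 differed by 1.02 (adjusted p = 0.152) and 1.25 (adjusted p = 0.0304), the latter lost in 5 of 6 fits that leave out 1 library (adjusted p up to 0.233). This ATF4 call was lost as well with DESeq2 size factors, in the unfiltered table and in the restricted fit. After bleomycin DDIT3 and ATF4 were called with COPB2 shRNA 2 (1.17 and 0.86) and not with COPB2 shRNA 1 (0.62 and 0.49), and the ATF4 call was lost in 7 of 8 fits that leave out 1 library (adjusted p up to 0.309). The restricted fit lost both of these calls (adjusted p = 0.555 for DDIT3). For ATF4 the unfiltered table and the correction for GC content and length lost it too.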

How the data were processed

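The authors deposited 1 table of raw counts by gene symbol for 42 libraries, not normalized and with no column outside these samples. Per the study's methods, directional single-end libraries were aligned with Tophat to hg19 and counted with HTSeq, while the submitters' processing notes name hg38, DRAGEN, STAR 2.7.8a and DESeq2 1.32.0; the table does not settle which was used, nor the strand setting of the counting. Symbols matched RefSeq GRCh38 in 95.5% of cases, and exon lengths came from GENCODE on GRCh37.

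Libraries were grouped by their labels. After filterByExpr and TMM scaling, contrasts were tested with the two-sided robust quasi-likelihood F-test of edgeR 4.0.16 in R 4.3.3, in 1 fit per cell line (18 and 24 libraries) and 1 of all 42 for the difference between models. P-values were adjusted by Benjamini-Hochberg across every gene of a fit. Errors of fold changes are SE of these fits, and intervals are 95%. A floor of 3 counts is 0.127 to 0.228 CPM by library when computed on total counts without the TMM factor. It covers counting error only, since reads carry no molecular identifiers. No libraries agreed within sampling noise. The fits were tested on simulated counts.

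All members may be named; library values are given for members called with all 3 shRNAs, called in a difference, or with the 3 smallest p-values where none was called on knockdown, with SQSTM1, MAP1LC3B, GABARAPL1 and BNIP3 throughout. WIPI2, ATG4D, TMEM41B and BNIP3L were added after their values were seen. Of other lists, at most the 5 highest and 5 lowest called genes and the transcription factors are named. The members and lists were chosen with earlier results of these data known. Alternatives were the replicate number as a block, each library left out in turn, the unfiltered table, DESeq2 size factors, the DESeq2 1.42.0 Wald test, and fits restricted to the libraries of a contrast. The correction for GC content and length was chosen after seeing the data.

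Replicate numbers are shared between groups. Deviations of equally numbered libraries from their group means correlated over 0.1 in every pair with COPB2 shRNA 1 (0.47 to 0.79) and COPB2 shRNA 2 (0.53 to 0.80) in OIS against DMSO, and in 3 knockdown contrasts of IMR90 cells, but fell to -0.61 in OIS and -0.50 after bleomycin with the control shRNA.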

Additional observations from a re-analysis of the deposited data

Results flagged for a closer look

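In groups of 4 libraries, 132 sets of values were examined for a library far from the others, and 11 were flagged. These sets do not cover every member in every group. Chance flags about 1 in 20. In the first IMR90 DMSO library with the control shRNA, WIPI2 (214 CPM, others 141 to 152), ATG4D (28.2 CPM, others 13.9 to 16) and SQSTM1 (1610 CPM, others 842 to 972) were high. In the first IMR90 DMSO library with COPB2 shRNA 2, WIPI2 (190 CPM), ATG4D (21.3 CPM), ATG7 (43.7 CPM) and SQSTM1 (1330 CPM) were high, and in the first with COPB2 shRNA 1, ATG101 (76.3 CPM). ATG10 was low in the fourth DMSO library with COPB2 shRNA 2 (8.59 CPM) and in the second bleomycin library with the control shRNA (5.51 CPM), and ATG14 was high in the third of the latter group (39.7 CPM). Groups of 3, as in ER:RAS cells, were not examined.

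The OIS and bleomycin responses differed by the test of the difference for BNIP3 (log2 difference 1.51), ATG7 (1.09), WIPI1 (0.89), VMP1 (0.54), CALCOCO2 (0.47) and GABARAPL1 (-1.02).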

How the results depend on the processing

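Brackets hold the share of all genes called under the same setting. Corrected for GC content and length, the fits called 19 members in OIS (53.5%) and 21 after bleomycin (44.4%) with the control shRNA, 21 (55.4%) and 25 (48.7%) with COPB2 shRNA 1, 20 in OIS with COPB2 shRNA 2 (54.9%), 13 for the difference between models (34.7%) and 1 for COPB2 shRNA 2 after bleomycin (0.365%). With the replicate block they called 13 after bleomycin with the control shRNA (40.9%), 17 in OIS (53.2%) and 17 after bleomycin (44.9%) with COPB2 shRNA 1, 20 in OIS with COPB2 shRNA 2 (53.1%) and 11 for the difference between models (29.2%); the block moved no other count of members by over 1.5 times. Fits restricted to the libraries of the contrast gave 3 in OIS with the control shRNA (21.6%), 10 after bleomycin with COPB2 shRNA 2 (27.1%) and 1 for the difference between models (14.3%). The DESeq2 Wald test gave 1 for COPB2 shRNA 2 in OIS (0.49%). The cause of these shifts was not tested. For fits that leave out 1 library, brackets hold the lowest and highest share over these fits, which need not belong to the counts beside them. In OIS the fit with 7 members for the control shRNA called 32.2% of all genes. The fit with 8 members for COPB2 shRNA 1 called 30.3%. For COPB2 shRNA 2 the fit with 6 members, without the first DMSO library, called 30.7%. Leaving out each library in turn gave 7 to 10 in OIS (27.8% to 35.5%) and 7 to 9 after bleomycin (24.7% to 31.5%) with the control shRNA, 8 to 12 (29.9% to 33.6%) and 8 to 11 (28.9% to 33.2%) with COPB2 shRNA 1, 6 to 12 (29.9% to 34.9%) and 13 to 20 (32.7% to 42.6%) with COPB2 shRNA 2, 3 to 6 for the difference between models (16.4% to 19.6%) and 0 in every knockdown contrast; the lowest count for COPB2 shRNA 2 in OIS came without the first or the second ER:RAS DMSO library with that shRNA, and the lowest for the difference without the first with the control shRNA.

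The direction turned for SQSTM1 in OIS with the control shRNA (range -0.26 to 0.46 with each library left out; -0.26 without the first OIS library and -0.01 without the third DMSO library) and with COPB2 shRNA 2 (-0.0086, without the third DMSO library of that shRNA, to 0.41), and for GABARAPL2 with COPB2 shRNA 2 in DMSO-treated ER:RAS cells (-0.25 to 0.0079, the latter without the third control library); none of these was called. Groups of 3 or 4 libraries leave small fold changes undetected, and the knockdown contrasts in ER:RAS cells had wider intervals than those in IMR90 cells.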
